A study of Homo sapiens with 6 samples.

Results

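CORO1A, CD68, ITGAX, ITGAM and LYZ are genes used as markers of myeloid cells, and here they were measured in a lung cancer cell line. They were taken by gene symbol from a deposited table of 1705 genes, in which each of the 5 has 1 row. PC9 is a human lung adenocarcinoma line with a deletion in exon 19 of EGFR. Parental PC9 was compared with PC9-GR, a derivative selected for resistance to gefitinib, an inhibitor of the EGFR kinase, and each group had 3 libraries from independent cultures. Both groups carry the EGFR deletion. Selection of PC9-GR began at 0.5 µM gefitinib and ended at 10 µM, the dose of its upkeep, and the drug was then withdrawn for 7 days ahead of RNA extraction. The labels do not say whether PC9-GR is 1 clone or a pool of cells, and it is a single resistant line, so line and resistance cannot be told apart.

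Myeloid cells are the monocytes, macrophages, granulocytes and dendritic cells. ITGAM (CD11b) and ITGAX (CD11c) encode integrin alpha chains that reach the surface only as pairs with the beta-2 chain ITGB2. These pairs are the complement receptors CR3 and CR4, which bind fragments of C3, and ITGAM with ITGB2 also binds ICAM1. CORO1A is a coronin that binds actin and is abundant in leukocytes. CD68 is a heavily glycosylated protein of the lysosomal membrane, used to stain macrophages, and LYZ is lysozyme, which cuts bacterial cell walls and is made by phagocytes and by glands of the airway.

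The table is a selection made on the same 6 libraries. For each listed gene the authors' log2 ratio is above 1 or below -1, with an authors' p-value of at most 0.04965 and at least 0.352 FPKM in the authors' value of the higher group. All 5 genes were therefore chosen as changed before any test described here, and the tests below are not independent evidence of a change. FPKM (fragments per kilobase of transcript, scaled to the fragments of the library) is a level per length, so levels can be set beside each other between genes. The table holds no counts, and the depth of each library is unknown. RNA from whole cultures does not separate a few cells with much of a transcript from many cells with little of it.

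ITGAM, ITGAX, CD68 and CORO1A were higher in PC9-GR, and LYZ was lower. The first 4 were called higher by the moderated test of limma at an adjusted p below 0.05, on the scale log2(FPKM + 1) and with a filter of 1 FPKM in at least 3 libraries. LYZ fell below the filter. Over the 1207 genes that passed it, 48.4% were called higher and 51.3% lower (99.7% in either direction), so that a call by itself says little about these genes. ITGAX passed the filter only through its PC9-GR libraries, and ITGAM had only 1 PC9 library above it. The libraries of the 2 groups did not overlap for any of the 5 genes, which was also true of 94.8% of the 1705 listed genes.

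**Figure D1:**
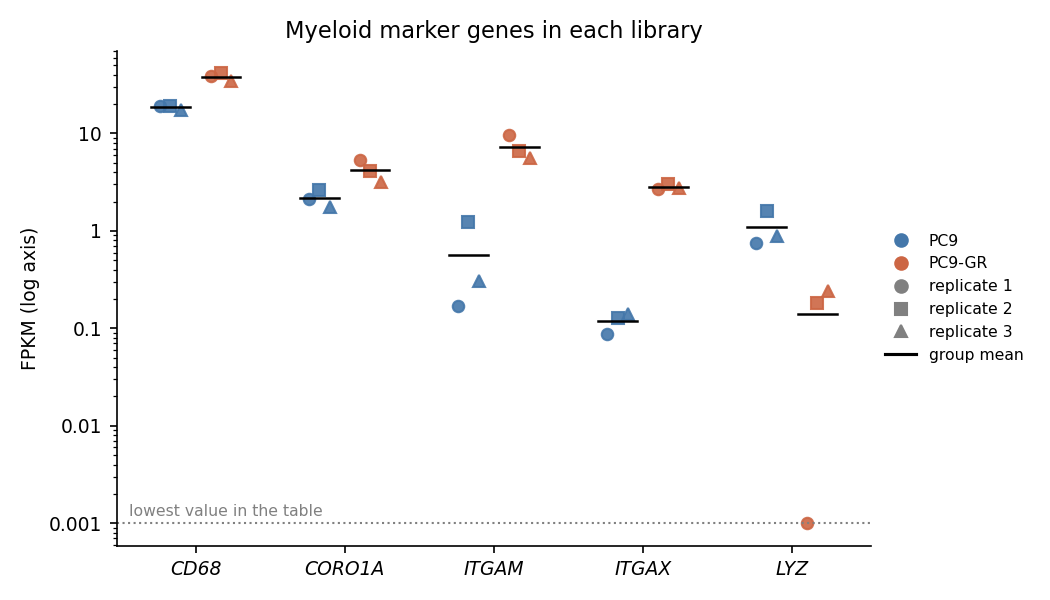
FPKM on a log axis of the 5 marker genes in each of 6 libraries, with PC9 in blue, PC9-GR in orange, 1 symbol per replicate number and a line at the group mean. ITGAM and ITGAX are the genes with the widest gap upwards, CD68 is the most abundant in both lines, and LYZ is at the lowest value of the table (0.001) in PC9-GR replicate 1.

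ITGAM measured 0.169, 1.24 and 0.303 FPKM in PC9 replicates 1 to 3 and 9.63, 6.58 and 5.56 FPKM in PC9-GR replicates 1 to 3. The lowest resistant library was thus more than 4 FPKM above the highest parental one, which was PC9 replicate 2. The means were 0.570 ± 0.583 (SD, n = 3) and 7.25 ± 2.12 FPKM (SD, n = 3), a 12.7-fold difference. The size of this fold is loose, because the SD in PC9 was as large as the mean. limma gave a log2 difference of 2.42 (SE 0.26, 95% confidence interval 1.84 to 3.01, adjusted p = 1.28e-05), and 34 of the 1207 tested genes had a larger one. ITGAM (ENSG00000169896) is placed by the table on chromosome 16 from 31271310 to 31344213, in a build that is not given in the sources used here.

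ITGAX was close to silent in the parental line, with 0.0871, 0.128 and 0.141 FPKM in PC9 replicates 1 to 3. The PC9-GR replicates measured 2.70, 3.04 and 2.74 FPKM. All 3 resistant libraries lay within 0.4 FPKM of each other and far above the parental ones. The means of 0.119 ± 0.0281 and 2.83 ± 0.187 FPKM (SD, n = 3 each) differed 23.8-fold. On the scale log2(FPKM + 1), which understates the change of so low a gene, the limma difference was 1.77 (SE 0.10, 95% confidence interval 1.55 to 2.00, adjusted p = 3.52e-07). With a pseudocount of 0.1 in place of 1 it was 3.75, close to that of ITGAM at 3.77. ITGAX (ENSG00000140678) is placed on chromosome 16 from 31366454 to 31394318.

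CD68 was the most abundant of the 5 genes in each line. It measured 19.3, 19.0 and 17.4 FPKM in PC9 replicates 1 to 3 and 39.3, 41.5 and 34.5 FPKM in PC9-GR replicates 1 to 3. Replicates of a line differed little, and every resistant library lay well above every parental one. The means were 18.6 ± 1.05 and 38.4 ± 3.61 FPKM (SD, n = 3 each), a 2.07-fold difference, with a limma log2 difference of 1.01 (SE 0.11, 95% confidence interval 0.77 to 1.25, adjusted p = 1.08e-05). The size moved with the scaling of the libraries, to 1.78 with equal library totals, 1.63 under quantile normalization and 0.71 with median-ratio scaling. These scalings, here and below, used the listed genes alone and not the whole libraries. The listed genes sum to 28346 to 30541 FPKM in a PC9 library and 16705 to 17114 FPKM in a PC9-GR library. Equal library totals therefore raise every PC9-GR value relative to PC9. In the authors' deposited table the q-value of CD68 is 0.0699, the only one of the 5 above 0.05, and q is under 0.05 for 88.4% of the listed genes.

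The CD68 value also carries a limit of annotation. The table gives CD68 (ENSG00000129226) a locus on chromosome 17 from 7465191 to 7536700, which is 71510 bp, whereas the gene spans 2647 bp in GENCODE 29. The loci of the other 4 genes are as long as their GENCODE 29 genes to within 22 bp. In GENCODE 29 a stretch of 68863 bp on either side of CD68 holds 13 other coding genes, among them SENP3 and EIF4A1, and none of the 13 is listed. Both sides together are wider than the locus of the table, and how many of the 13 lie within that locus was not determined. How reads were shared out within this wide locus is not given in the sources used here.

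CORO1A, the leukocyte coronin, measured 2.12, 2.62 and 1.78 FPKM in PC9 replicates 1 to 3 and 5.41, 4.12 and 3.15 FPKM in PC9-GR replicates 1 to 3. The groups came within 0.6 FPKM of each other, between PC9 replicate 2 and PC9-GR replicate 3. The means were 2.17 ± 0.421 and 4.22 ± 1.13 FPKM (SD, n = 3 each), a 1.94-fold difference. limma gave it the smallest log2 difference of the 4 tested genes, 0.71 (SE 0.18, 95% confidence interval 0.29 to 1.12, adjusted p = 0.00391), and 531 of 1207 tested genes had a larger one. It was 1.31 with equal library totals and 0.48 with median-ratio scaling (limma adjusted p = 0.0400). CORO1A (ENSG00000102879) lies on chromosome 16 from 30194147 to 30200397 in the table. The authors' deposited table gives it a ratio of 2.15, computed from group values that are not the means of the library values.

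LYZ went the other way. It measured 0.760, 1.61 and 0.891 FPKM in PC9 replicates 1 to 3. In PC9-GR replicate 1 it was listed at 0.001 FPKM, the lowest entry of the table, and PC9-GR replicates 2 and 3 measured 0.184 and 0.241 FPKM. Each parental library was above each resistant one, at levels below 2 FPKM throughout. The log2(FPKM + 1) difference was -0.85 (two-sided exact permutation test, p = 0.1). No smaller p can be reached with 3 libraries a group. Without the filter on low values, limma called LYZ lower (adjusted p = 0.00139), as it did 47.5% of all 1705 genes. LYZ (ENSG00000090382) is placed on chromosome 12 from 69742120 to 69748014.

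**Figure D2:**
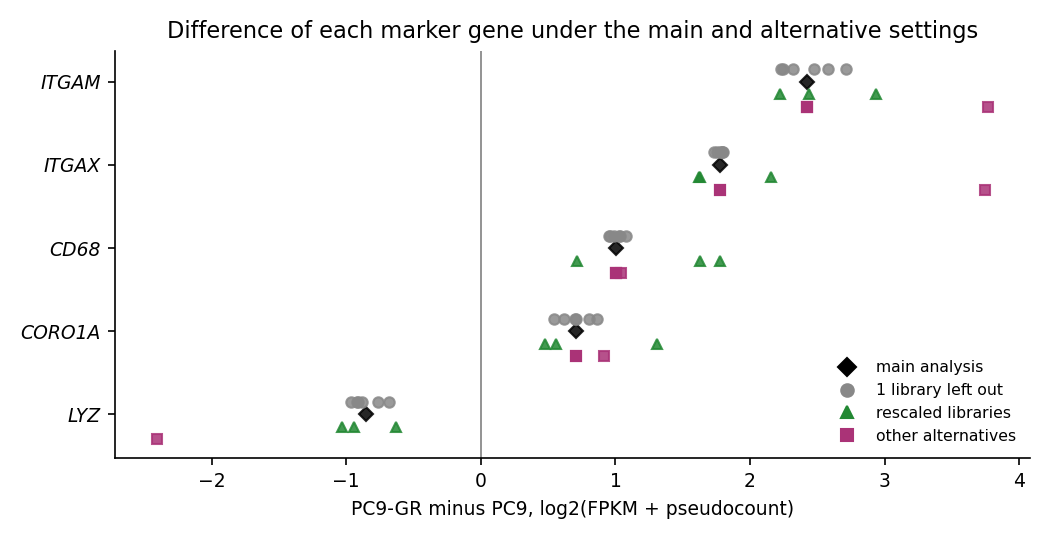
Difference of PC9-GR minus PC9 in log2(FPKM + pseudocount) for each marker gene, in the main analysis (diamonds) and in the alternatives that gave a value. ITGAM, ITGAX, CD68 and CORO1A stay to the right of 0 and LYZ to the left. The points far out for ITGAM, ITGAX and LYZ are those with a pseudocount of 0.1.

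The order of the 5 levels changed between the lines. In PC9 it ran CD68, CORO1A, LYZ, ITGAM and ITGAX, and the libraries of LYZ and ITGAM overlapped, whereas those of the other neighbours in the order did not. In PC9-GR it ran CD68, ITGAM, CORO1A, ITGAX and LYZ, with no overlap between neighbours, although the lowest ITGAM library (5.56 FPKM) and the highest CORO1A library (5.41 FPKM) were close. ITGAM thus went from the fourth place to the place after CD68. Within a line the genes did not share 1 high library. PC9 replicate 2 was the highest parental library for ITGAM, CORO1A and LYZ, but PC9 replicate 1 was for CD68 and PC9 replicate 3 for ITGAX. PC9-GR replicate 1 was the highest for ITGAM and CORO1A, PC9-GR replicate 2 for CD68 and ITGAX, and PC9-GR replicate 3 for LYZ. Over all 1705 genes, each parental library was the highest of its line for 33.0% to 33.6% of genes and each resistant one for 28.1% to 40.6%.

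Sequence upstream of the start was at hand in RefSeq (GRCh38.p14) for ITGAM, CD68 and CORO1A, genes that were higher together, and not for ITGAX and LYZ. The 250 bases before the RefSeq start are printed 5′ to 3′ on the plus strand, which is the strand of all 3 genes. Their GRCh38.p14 positions differ from those of the table, which starts ITGAM at 31271310. The window positions therefore cannot be read against the loci given above. They are shown because each holds GAGGAA or its reverse complement TTCCTC, letters that can be bound by PU.1, a transcription factor of myeloid cells. Capitals mark these letters only, and other forms of the PU.1 site were not searched.
ITGAM, chr16:31259725-31259974: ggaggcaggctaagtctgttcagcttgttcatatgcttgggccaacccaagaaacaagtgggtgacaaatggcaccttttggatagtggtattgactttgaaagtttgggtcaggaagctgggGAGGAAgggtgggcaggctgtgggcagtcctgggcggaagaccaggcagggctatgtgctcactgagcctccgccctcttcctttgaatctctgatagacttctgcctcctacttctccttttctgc
CD68, chr17:7579388-7579637: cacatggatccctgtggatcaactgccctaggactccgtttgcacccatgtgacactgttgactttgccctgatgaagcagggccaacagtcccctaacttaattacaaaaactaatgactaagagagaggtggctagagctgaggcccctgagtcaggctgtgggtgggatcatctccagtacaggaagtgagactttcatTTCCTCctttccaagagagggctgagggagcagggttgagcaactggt
CORO1A, chr16:30183352-30183601: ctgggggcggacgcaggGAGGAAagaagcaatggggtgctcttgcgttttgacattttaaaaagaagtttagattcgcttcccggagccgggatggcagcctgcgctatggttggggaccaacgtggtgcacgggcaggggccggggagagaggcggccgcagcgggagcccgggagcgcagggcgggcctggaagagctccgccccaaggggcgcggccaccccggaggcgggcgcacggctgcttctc

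The PU.1 letters lie 122 to 127 bases before the start in ITGAM, 43 to 48 bases in CD68 on the opposite strand, and 228 to 233 bases in CORO1A. They occur on either strand in 23.6% of 34943 RefSeq windows of the same length, so 3 of 3 is a description of a short word. The AP-1 letters TGANTCA are present only in the CD68 window, 94 to 100 bases before the start, and in 6.59% of all windows. CD68 also has 2 matches to the C/EBP letters TTNNGNAA (33.2% of windows). The GC box GGGCGG (42.5% of windows) has 3 matches in CORO1A, 2 in ITGAM and none in CD68. The letters CACGTG of lysosomal gene control, the ZEB-type E-box CACCTG and TATAAA (6.32%, 17.5% and 10.8% of windows) were searched on both strands too and are not in these 3 windows. GENCODE 29 starts the genes 8 bases (ITGAM), 171 bases (CD68) and 775 bases (CORO1A) further upstream than RefSeq, so other start sites of CD68 and CORO1A exist in the annotation.

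The beta-2 chain was higher in PC9-GR as well. ITGB2 measured 0.187, 0.232 and 0.482 FPKM in the parental libraries and 1.93, 1.87 and 2.21 FPKM in the resistant ones, and its libraries did not overlap. The means of 0.301 ± 0.159 and 2.00 ± 0.185 FPKM (SD, n = 3 each) differed 6.66-fold, with a limma log2 difference of 1.21 (SE 0.12, adjusted p = 6.86e-06). Like ITGAX, it passed the filter only through its PC9-GR libraries, where it is high. The 2 alpha chains together were 3.75 to 6.39 times the level of ITGB2 in the PC9-GR libraries, and 0.921 to 5.89 times in the PC9 libraries, where all 3 transcripts were low. ITGAM was 2.03 to 3.56 times the level of ITGAX in PC9-GR and 1.94 to 9.64 times in PC9, the top value being PC9 replicate 2.

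Of 26 integrin subunit genes in a list of that family, 8 are in the table, and 7 were tested. ITGAM, ITGAX, ITGB2 and ITGAV were called higher, and ITGB8, ITGB4 and ITGA2 lower. Over all tested genes 48.4% were called higher and 51.3% lower, so this split is near the background. The median log2 difference of the 7 was 1.06, against -0.63 over the 1207 tested genes. ITGAX and ITGB2 are among the 7 only through their PC9-GR libraries. ITGAM also needed its PC9-GR libraries to pass, as its PC9 libraries measured 0.169, 1.24 and 0.303 FPKM. The median of the 7 is therefore partly set by the filter. Without the filter the median of all 1705 genes was 0.29. These medians are not a result about the integrin family. ITGAV, a widely expressed alpha chain, rose from 46.8 ± 2.78 to 98.6 ± 10.8 FPKM and so stayed far above the leukocyte chains. ITGB4, the hemidesmosome chain of epithelia, fell from 154.8 ± 23.1 to 48.9 ± 6.53 FPKM, and ITGA2, a collagen receptor chain, fell from 97.9 ± 5.72 to 46.9 ± 3.84 FPKM, though quantile-normalized values gave no limma call (adjusted p = 0.225). ITGB3, the platelet chain that also pairs with ITGAV, stayed below the filter (0.157 ± 0.0952 FPKM in PC9, 0.845 ± 0.182 FPKM in PC9-GR).

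Ligands and activators of beta-2 integrins, listed together with relatives such as FERMT1 and JAM2, moved in both directions. Of 22 such genes 8 are listed and 7 were tested, with 4 called higher and 3 lower, again near the shares of 48.4% and 51.3% over all tested genes (median log2 difference 0.61). FERMT3 and ICAM5 needed PC9-GR libraries to pass the filter, so this median is partly set by the filter. The median was -0.63 over all tested genes, and 0.29 over all 1705 genes without the filter. ICAM1 rose from 7.81 ± 2.16 to 26.2 ± 5.07 FPKM. FERMT3 (kindlin-3), which activates beta-2 integrins in blood cells, rose from 0.884 ± 0.239 to 3.06 ± 0.834 FPKM. The related FERMT2 rose from 15.9 ± 1.69 to 40.3 ± 7.51 FPKM, and FERMT1, the kindlin of epithelia, fell from 49.995 ± 6.18 to 18.9 ± 3.23 FPKM. The complement protein C3, whose fragments CR3 and CR4 bind, fell from 154.7 ± 26.8 to 53.9 ± 8.84 FPKM. ICAM2 fell 2.16-fold, though equal library totals left it without a limma call (adjusted p = 0.0692), and ICAM5, which passed the filter only through PC9-GR, rose 2.44-fold from 0.569 ± 0.120 FPKM. JAM2 was below the filter and overlapped between the lines.

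**Figure D3:**
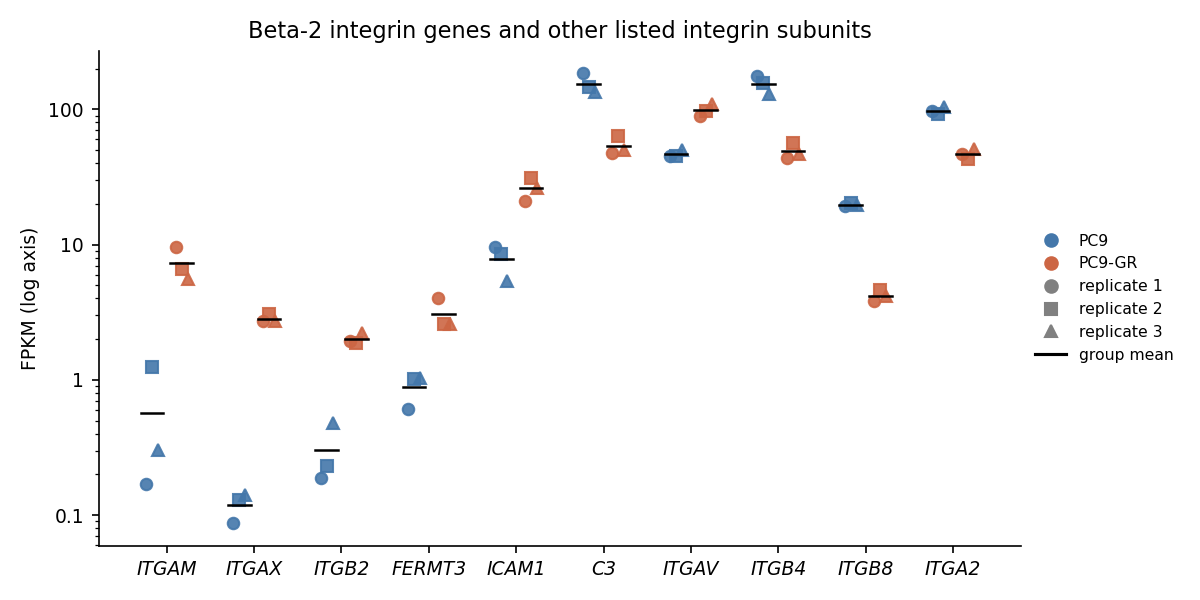
FPKM on a log axis in each library for the beta-2 integrin chains, their activator FERMT3, the ligands ICAM1 and C3, and 4 other listed integrin chains. Lines mark the group means of PC9 (blue) and PC9-GR (orange). ITGAM, ITGAX and ITGB2 are below 10 FPKM in every library, whereas ITGAV, ITGB4 and ITGA2 are above 40 FPKM in every library.

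Few other blood cell genes are in the table. Of 40 markers used for myeloid cells, not all of them particular to these cells, only CLEC7A, a receptor for fungal glucans, is listed. Its parental libraries measured 3.24, 6.67 and 5.52 FPKM and its resistant ones 10.4, 13.4 and 12.5 FPKM, and limma called it higher (log2 difference 1.13, SE 0.21, adjusted p = 0.000439). PTPRC, CD14, CSF1R, TYROBP, SPI1 (which encodes PU.1) and the other 34 are not among the listed genes, and an unlisted gene may be silent, equal in both lines or expressed, so their levels were not analysed here. Of 36 markers of other blood cells, 3 are listed. The tetraspanin CD37 (0.0962 ± 0.0670 and 0.583 ± 0.261 FPKM) and the selectin ligand SELPLG (0.158 ± 0.0112 and 0.555 ± 0.111 FPKM) were below the filter. ARHGDIB, which is abundant in leukocytes, fell from 470.9 ± 21.3 to 230.9 ± 14.5 FPKM. Its limma call was lost both with equal library totals over the listed genes (adjusted p = 0.0674) and with quantile-normalized values of the same genes (adjusted p = 0.301). The listed markers of this group summed to between 453.0 and 494.6 FPKM in a parental library and between 216.6 and 245.1 FPKM in a resistant one, nearly all of it ARHGDIB.

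Markers of other cell types that a culture could hold were examined in the same way. PDGFRB is the only one of 14 endothelial and fibroblast markers in the table, at 0.0661 to 0.143 FPKM in the parental libraries and 2.38 to 3.77 FPKM in the resistant ones, and it passed the filter only through the latter. None of 16 epithelial identity genes is listed, so the labelled epithelial cell type could not be checked in these data. Whether cells that express CLEC7A or PDGFRB had a part in the differences of the 5 genes was not tested.

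CORO1A and HCLS1 are the only listed genes of 24 coronins and regulators of branched actin. HCLS1, a cortactin relative of blood cells, did not pass the filter, with means of 0.0721 ± 0.0393 FPKM in the parental and 0.645 ± 0.101 FPKM in the resistant libraries. Without the filter limma called it higher, as it did 49.6% of all 1705 genes. The other 6 coronins are not among the listed genes.

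Lysosomal genes in the table moved in both directions. Of 45 lysosomal membrane proteins and hydrolases 5 are listed, and CD68 and GPNMB were called higher and NPC2, CTSV and ACP5 lower (median log2 difference -1.24). These 2 and 3 of 5 are near the shares of 48.4% and 51.3% over all tested genes. GPNMB, a glycoprotein of melanosomes and macrophages, rose from 13.2 ± 1.80 to 31.4 ± 4.61 FPKM. NPC2, which carries cholesterol out of lysosomes, fell from 437.1 ± 24.7 to 117.9 ± 16.04 FPKM. The protease CTSV fell 2.42-fold, and ACP5, the tartrate-resistant phosphatase of osteoclasts and macrophages, fell 10.4-fold from 5.56 ± 1.12 to 0.532 ± 0.321 FPKM, having passed the filter only through PC9. The median of the 5 is thus partly set by the filter.

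LYZ belongs to a list of 32 lysozyme family and airway defence genes, of which 5 are in the table. AGR2, SLPI and PI3 were called lower and MUC4 higher, and LYZ is the untested member (median log2 difference of the 4 tested -1.69). Of all tested genes 51.3% were called lower. AGR2, a disulphide isomerase of mucous cells, fell 10.98-fold from 36.8 ± 12.4 to 3.35 ± 0.618 FPKM. The protease inhibitors SLPI and PI3 fell 2.83-fold and 3.79-fold, from 103.1 ± 13.9 and 570.9 ± 113.3 FPKM. MUC4, a membrane mucin, rose from 2.76 ± 0.815 to 6.46 ± 2.01 FPKM. No other lysozyme family gene is listed.

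CORO1A, ITGAM and ITGAX all lie on chromosome 16, where 33 of 55 listed genes have an authors' ratio above 1 (60.0%, against 51.1% of the whole table). The share is the same size on chromosome 17, which holds CD68, with 47 of 78 (60.3%). On chromosome 12, which holds LYZ, it was 41 of 85 (48.2%). These counts include the markers themselves. ITGAM and ITGAX are next to each other, with 22241 bp between their loci. Within 1000000 bp of ITGAM, limma called PYCARD, C16orf98 and TGFB1I1 higher besides ITGAX. Over all tested genes 48.4% were called higher and 51.3% lower. PYCARD, the adaptor of inflammasomes, rose from 5.92 ± 0.161 to 14.6 ± 1.51 FPKM. It has the same locus as C16orf98 in the table, so the values of both are uncertain. TGFB1I1, a focal adhesion protein, rose 2.02-fold.

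CORO1A has neighbours that moved the other way. TBX6, a T-box factor, fell from 3.87 ± 0.271 to 1.49 ± 0.353 FPKM, and YPEL3 fell from 20.5 ± 1.31 to 10.1 ± 4.17 FPKM, a call lost with equal library totals (limma adjusted p = 0.262). The YPEL3 locus ends 78710 bp before that of CORO1A, and the TBX6 locus ends 90939 bp before it. Near CD68 the dynein chain DNAH2 fell 4.69-fold, and ALOXE3 and HES7 were below the filter. The only listed gene near LYZ, the chloride channel BEST3, rose 2.05-fold, without a limma call after quantile normalization (adjusted p = 0.0698).

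**Figure D4:**
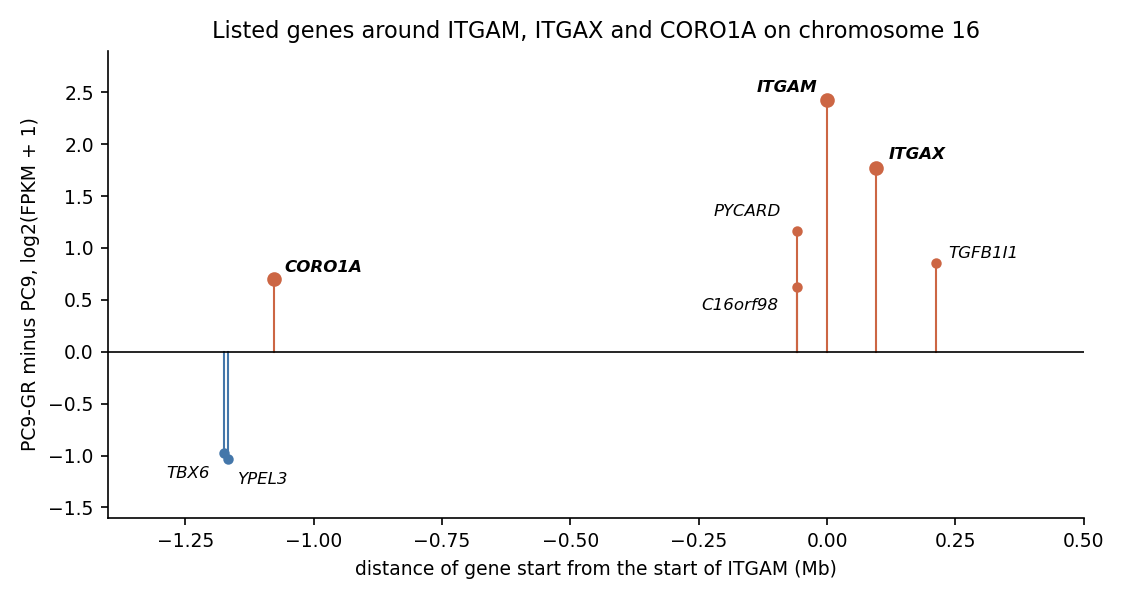
Difference of PC9-GR minus PC9 in log2(FPKM + 1) for the listed genes that start within 0.25 Mb of CORO1A, ITGAM or ITGAX on chromosome 16, against the distance of each gene start from that of ITGAM in Mb. Orange stands for higher and blue for lower in PC9-GR. The 5 genes drawn around ITGAM and ITGAX are all higher and include the 2 integrin genes as the tallest, while TBX6 and YPEL3 beside CORO1A are lower. PYCARD and C16orf98 have the same locus and are not separate observations. Of all tested genes 48.4% were called higher.

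The genes most like each marker were found as those with the smallest root mean square difference of log2(FPKM + 1) over the 6 libraries, each gene centred on its own mean. For ITGAX they were HHIPL2 (0.033), GALNT9 (0.047) and INSIG1 (0.059). For CD68 they were PLK2 (0.064), PIK3CD (0.067) and NOTUM (0.067). ITGAM had no equally close match, with DOCK10 (0.21), MYPN (0.24) and ADORA2A (0.26) the nearest. UST (0.095), NEURL3 (0.11) and DPYSL4 (0.12) were nearest to CORO1A, and SNHG18 (0.070), SLFN13 (0.095) and RP11-867G2.6 (0.097) to LYZ. None of these is another of the 5 markers. With 2 groups of 3 libraries, this likeness depends largely on the size of the group difference.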

How the data were processed

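RNA of 3 PC9 and 3 PC9-GR cultures was extracted with Trizol and made into strand-specific Agilent SureSelect libraries, per the labels' protocols. TopHat and Cufflinks were used, per the submitters' processing notes. Whether strand was used in counting is not given in the sources used here, and neither are tool versions, the build and the gene models. Per the file headers, the values are FPKM, for each library and each group. The deposited columns also give, for PC9-GR over PC9, a ratio, the log2 of that ratio, and a p-value with its q-value.

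Libraries were grouped by their titles. The deposited FPKM values were used on the scale log2(FPKM + 1). Genes reaching 1 FPKM in 3 or more of the 6 libraries (1207 genes) were tested with limma 3.58.1 in R 4.3.3 (two-sided, variance trend, group as the only term, Benjamini-Hochberg adjustment over all genes tested, threshold 0.05). LYZ was tested with an exact permutation test (scipy 1.17.1). Folds are ratios of mean FPKM. The limma step was tested on simulated data in which most genes were unchanged and the others were raised, unlike the listed genes.

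The markers, the 9 gene lists and the search letters were chosen with earlier results of these data known. Named genes are the 5 markers, list members in the table (up to 4 per direction by size), the 3 genes with the most similar pattern, and up to 6 listed genes within 1000000 bp, of which 1 is not reported here. Alternatives were a pseudocount of 0.1, no filter, a filter at 5 FPKM, 3 other scalings, no variance trend, a replicate block and each library left out. The scalings were computed from the listed genes alone.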

Additional observations from a re-analysis of the deposited data

How the results depend on the processing

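ITGAM and CD68 were called higher in each of 14 alternatives, and ITGAX and CORO1A in each of the 13 that tested them. All listed genes were chosen as changed on the same libraries, and 99.7% of those tested were called in the main analysis. Repeated calls are therefore not independent evidence of a change. Neither of the latter 2 reached a filter at 5 FPKM in 3 libraries, so only 2 of the 5 markers were then tested, and both were called higher. ITGAM passed that filter only through its PC9-GR libraries. Of the 629 genes tested there, 234 were called higher and 393 lower, against 584 and 619 of 1207 in the main analysis. Fewer genes were tested, and 37.3% of the calls were higher, against 48.5%. Without a filter 1 marker, LYZ, was called lower, against 0 when it was not tested. Over the alternatives limma's adjusted p ran from 1.52e-06 to 0.000147 for ITGAM, 7.47e-08 to 8.06e-06 for ITGAX, 2.57e-07 to 0.000209 for CD68 and 9.32e-05 to 0.0400 for CORO1A. The LYZ difference stayed negative, from -2.41 with a pseudocount of 0.1 to -0.63 with equal library totals, and its exact p was 0.2, the smallest possible, with any 1 library left out. Equal library totals moved the median log2 difference of all tested genes from -0.63 to -0.16, quantile normalization to -0.28 and median-ratio scaling to -0.76. Relative to that median, CORO1A differed by 1.33 as deposited and by 1.46, 0.84 and 1.24 under these scalings. Without the filter the median was 0.29, and CORO1A differed from it by 0.41. As all listed genes were chosen as changed, none of these medians marks the level of unchanged genes. Equal library totals left 586 genes called higher and 433 lower, which made 57.5% of the calls higher, against 48.5% as deposited. With the replicate number as a block, 586 genes were called higher and 619 lower. Deviations of same-numbered libraries correlated at -0.098, 0.082 and 0.16, so the numbers were not taken as pairs. The table has no counts, and what depth limits at levels below 1 FPKM cannot be given.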
